A study of Homo sapiens with 8 samples.

Results

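The genes described here are 35 markers of terminal keratinocyte differentiation and of the cornified envelope, chosen by name from the 34415 gene symbols of the count table. They were read in HaCaT, a line of human skin keratinocytes that became immortal spontaneously in culture, after small interfering RNA (siRNA) against the transcription factor ETV4. The study asked how ETV4 bears on keratinocyte migration and proliferation in high glucose. Every culture, at passages 21 to 33, grew in RPMI-1640 medium with serum. Its glucose was raised from 5.5 mM to 35 mM for 96 h, and the siRNA was present for 48 h. In 4 cultures the siRNA was siETV4 and in 4 it was the negative control siNC. The cultures are 1 cell line and no culture at 5.5 mM glucose is analysed here, so each comparison is between siRNAs at 35 mM. All 35 symbols were found in the table.

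As a keratinocyte leaves the basal layer of the epidermis it stops dividing, replaces the keratins KRT5 and KRT14 with KRT1 and KRT10, and later with KRT2, and begins to make envelope proteins. Transglutaminases cross-link those proteins, among them involucrin, the small proline-rich (SPRR) proteins and the late cornified envelope (LCE) proteins, into the cornified envelope beneath the plasma membrane. Filaggrin bundles the keratin filaments, corneodesmosomes hold the dead cells together, and factors such as KLF4, GRHL3, OVOL1 and ZNF750 direct the program. Many of the genes lie side by side on chromosome 1 in the epidermal differentiation complex.

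The program was expressed in part, and no member passed the test for a difference between the siRNAs. A member is called expressed here at a mean of at least 1 CPM (a count scaled to a common library total after TMM normalization) over the 8 libraries, low from 0.1 to under 1 CPM, and near zero below 0.1 CPM. The limits take no account of gene length. By these limits 11 of the 35 were expressed (31.4%), 7 were low and 17 were near zero, of which 7 had no read in any library. Over all 34415 symbols, 11766 reached 1 CPM (34.2%) and 19562 were near zero, of which 13830 had no read in any library. The expressed members were the plakin genes PPL and EVPL, KRT10, involucrin (IVL), dermokine (DMKN), the factors KLF4, OVOL1, GRHL3 and GRHL1, and, at means of 2.46 and 1.54 CPM, filaggrin (FLG) and transglutaminase 1 (TGM1). Of the 16 members that passed the filter on low counts, 0 passed an adjusted p of 0.05 in edgeR's quasi-likelihood test, against 32 of 13572 genes in all (0.236%; 0.118% higher and 0.118% lower with siETV4).

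The libraries held 35057643 to 41657753 counts, so that 1 CPM was 33.6 to 41.6 counts. ETV4 stood at 2.61 ± 0.547 CPM (SD, n = 4) with siETV4 and at 28.2 ± 5.64 CPM (SD, n = 4) with siNC, with no overlap. The keratinocyte markers KRT5, KRT14, TP63, ITGA6 and ITGB4 were abundant, at 83.3 to 1241 CPM in the siNC mean. Of 25 markers of melanocytes, fibroblasts, immune and endothelial cells, 17 were near zero and 9 had no read in any library, among them MLANA, TYR, COL1A2, LUM, PTPRC, CD3D, CD207 and KDR. PMEL (1.66), MITF (4.96), COL1A1 (3.86), CD68 (21.4) and CDH5 (16.6) exceeded 1 CPM in the mean of the 8 libraries. CD68 and CDH5 thus stood near expressed members such as OVOL1 (21.7 CPM) and KLF4 (18.9 CPM). The summed marker levels of each type overlapped between the groups: the fibroblast sum, for example, was 0.693 to 0.929 FPKM (counts scaled by gene length and library total) with siETV4 and 0.553 to 1.07 FPKM with siNC. The endothelial sum was 3.77 to 5.28 FPKM with siETV4 and 3.31 to 4.22 FPKM with siNC, and overlapped through siETV4 replicate 3 alone. CDH5, most of that sum, had a log2 fold change of 0.32 (edgeR adjusted p 0.396). DCN, a fibroblast marker, had groups that do not overlap, as in 6.55% of all genes tested. It had 109 reads over the siETV4 libraries and 22 over the siNC libraries (log2 fold change 2.20, edgeR adjusted p 0.203). The part of DCN in the results was not tested. Among the siNC libraries, replicate 4 stood apart. Across genes, Spearman's rho between transcript GC content and a library's departure from the 8-library mean was 0.53 to 0.64 for the first 3 siNC replicates. It was -0.60 for siNC replicate 4 and -0.65 to 0.21 for the siETV4 libraries, with siETV4 replicates 1 and 3 at -0.65 and -0.58. Results that turn on siNC replicate 4 are therefore given with and without it. Without it, the rho of every siNC library (0.53 to 0.64) lay above that of every siETV4 library (-0.65 to 0.21). The GC trend then runs with the siRNA. In bulk RNA, fewer cells of a differentiated kind and less RNA per cell cannot be told apart.

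Promoters of 7 members are shown because they set expressed members beside silent ones, in and outside the epidermal differentiation complex. IVL and KRT10 were expressed, SPRR1A and SPRR2A were low, and SPRR3, LCE3D and KRT2 had at most 1 read over all libraries. Each sequence is the 200 bases before the RefSeq start of the gene (GRCh38.p14), 5′ to 3′ on the gene's strand. Capitals mark a TATA box (TATAAA), an AP-1 site (TGANTCA) or a PEA3 element (AGGAAG) on either strand. In IVL the AP-1 match and the first PEA3 match share a base and run on as a single stretch of capitals.
IVL (chr1:152908346-152908545, plus strand): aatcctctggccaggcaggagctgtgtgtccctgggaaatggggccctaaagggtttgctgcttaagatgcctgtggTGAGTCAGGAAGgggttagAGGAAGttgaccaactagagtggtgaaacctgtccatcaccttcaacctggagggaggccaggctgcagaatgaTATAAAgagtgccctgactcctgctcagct
SPRR1A (chr1:152983881-152984080, plus strand): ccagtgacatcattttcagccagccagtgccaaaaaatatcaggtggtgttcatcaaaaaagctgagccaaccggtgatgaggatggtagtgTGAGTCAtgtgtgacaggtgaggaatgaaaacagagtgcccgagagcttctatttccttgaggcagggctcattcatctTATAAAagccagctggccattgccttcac
SPRR2A (chr1:153057513-153057712, minus strand): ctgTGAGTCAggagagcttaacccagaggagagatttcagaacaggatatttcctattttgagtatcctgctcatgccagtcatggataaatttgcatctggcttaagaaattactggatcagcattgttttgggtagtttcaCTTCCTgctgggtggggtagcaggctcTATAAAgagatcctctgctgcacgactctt
SPRR3 (chr1:153001549-153001748, plus strand): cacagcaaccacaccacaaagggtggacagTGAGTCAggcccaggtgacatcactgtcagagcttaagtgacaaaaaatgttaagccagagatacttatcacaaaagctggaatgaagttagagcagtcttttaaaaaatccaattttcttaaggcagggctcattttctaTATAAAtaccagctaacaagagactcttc
LCE3D (chr1:152580517-152580716, minus strand): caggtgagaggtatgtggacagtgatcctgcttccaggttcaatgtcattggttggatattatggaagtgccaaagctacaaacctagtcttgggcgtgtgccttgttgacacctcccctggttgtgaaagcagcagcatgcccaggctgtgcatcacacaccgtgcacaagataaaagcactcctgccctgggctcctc
KRT10 (chr17:40822615-40822814, minus strand): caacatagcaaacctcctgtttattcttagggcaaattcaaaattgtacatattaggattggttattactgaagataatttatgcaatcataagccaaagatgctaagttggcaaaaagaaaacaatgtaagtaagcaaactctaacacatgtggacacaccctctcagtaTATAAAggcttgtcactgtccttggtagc
KRT2 (chr12:52652212-52652411, minus strand): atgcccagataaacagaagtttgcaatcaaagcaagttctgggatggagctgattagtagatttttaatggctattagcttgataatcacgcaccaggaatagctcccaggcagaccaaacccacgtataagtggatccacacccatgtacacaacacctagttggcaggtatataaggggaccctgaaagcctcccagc

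The same letters occurred in expressed and in silent members. The AP-1 letters stood in IVL, SPRR1A and SPRR2A, and equally in SPRR3. Over the 250 bases before the start, searched in the 27 members that the RefSeq table holds, AP-1 letters occurred in 2 of 7 expressed members and in 8 of 20 others, against 6.6% of all 27305 promoters. PEA3 letters occurred in 4 of 7 and 9 of 20, against 28.7% of all promoters, and TATA letters in 3 of 7 and 5 of 20, against 11.1%. These matches are a description of letters and carry no measurement of binding. PPL, EVPL, OVOL1, TGM1, KRT1, SPRR2D, SPRR2E and ZNF750 were not searched.

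Levels of the members, taken per gene length as FPKM so that genes can be set beside each other, spanned from no read to a mean of 37.0 FPKM. PPL led at 30.5 to 44.0 FPKM over the 8 libraries, then DMKN at 28.6 to 39.7, KRT10 at 22.3 to 31.2 and IVL at 13.5 to 21.6. PPL was above DMKN in 5 of 8 libraries and below it in 3, so the order of these 2 does not hold across libraries. Both were above KRT10, and KRT10 above IVL, in 8 of 8. IVL was above EVPL in 8 of 8 libraries, and EVPL followed at a mean of 11.8 FPKM, KLF4 at 6.23, OVOL1 at 3.96, GRHL3 at 3.64 and GRHL1 at 1.45. In raw counts the set was still more uneven, with PPL holding 42.1% of all member counts and the first 5 members 88.1%. By rank among all symbols, PPL was number 1877 and KRT10 number 2405.

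**Figure D1:**
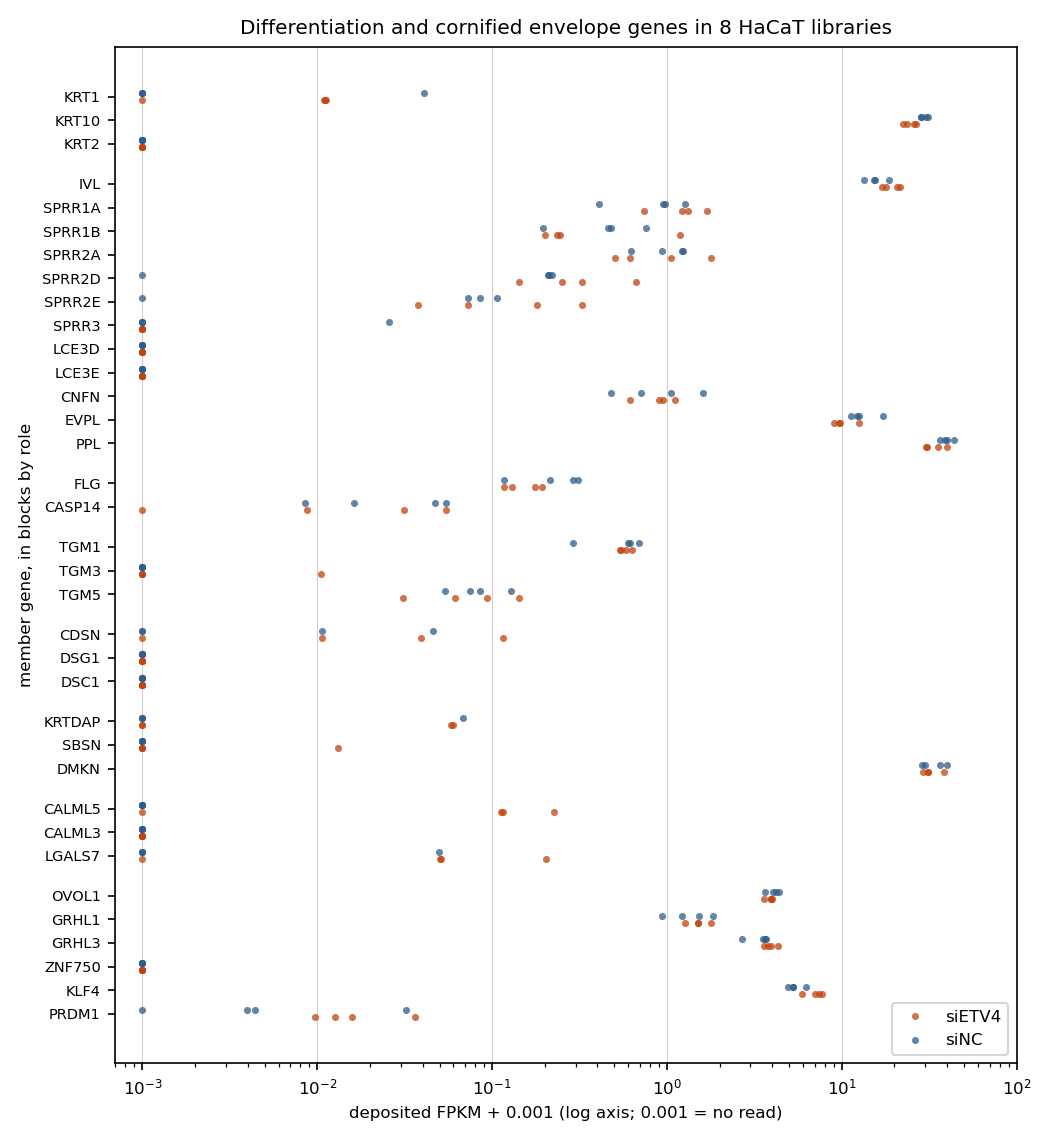
Deposited FPKM plus 0.001 of the 35 members in each of the 8 libraries, on a log axis, in blocks by role. Points at the left edge are libraries with no read; PPL, DMKN, KRT10, IVL and EVPL stand at the right, and the siETV4 and siNC points of expressed members lie close together.

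Among the suprabasal keratins, only KRT10 was expressed. KRT10, the type I keratin of the spinous layer, stood at 50.3, 57.9, 46.2 and 55.1 CPM in siETV4 replicates 1 to 4 and at 62.0, 70.3, 67.4 and 60.0 CPM in siNC replicates 1 to 4. Every siETV4 library was below every siNC library, the single member of 16 tested with groups that do not overlap (6.55% of all genes tested). The log2 fold change (siETV4 minus siNC throughout) was -0.31 (SE 0.10, 95% interval -0.54 to -0.08), and the edgeR adjusted p of 0.301 did not pass. Without siNC replicate 4 KRT10 passed at -0.35 (edgeR adjusted p 0.0366), in a fit that called 2327 genes, 16.9% of those tested. In the libraries of that fit the GC rho of the groups did not overlap. With each library's trend with GC content and length removed, the KRT10 value was -0.23 and did not pass (edgeR adjusted p 0.126). No other member passed in that fit, which called 1.76% of genes.

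KRT1, the type II keratin that pairs with KRT10 in the epidermis, had 3 reads in the siETV4 libraries together and 4 in the siNC libraries, all 4 in replicate 3. KRT2, the keratin of the upper spinous and granular layers, had none. The basal keratins were far more abundant: per length, the KRT5 level was 19.3 ± 1.596 times and the KRT14 level 17.3 ± 2.33 times that of KRT10 (SD, n = 8 libraries). The gene of KRT10 (chromosome 17, 40818117 to 40822614) shares its span with KRT10-AS1. Without a stated strand setting, reads of these 2 genes cannot be told apart. The same holds for OVOL1 with OVOL1-AS1, GRHL3 with GRHL3-AS1 and STPG1, and PPL with LOC105371064.

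Of the 12 envelope precursors 3 were expressed, namely PPL, IVL and EVPL. The plakins PPL (periplakin) and EVPL (envoplakin) form the heteromer on which the envelope is first laid down. PPL stood at 225, 198, 189 and 252 CPM with siETV4 and at 287, 243, 256 and 251 CPM with siNC. Only siETV4 replicate 4 reached the siNC range, and the log2 fold change was -0.26 (SE 0.11, 95% interval -0.50 to -0.03; edgeR adjusted p 0.362). EVPL stood at 61.8, 64.4, 56.3 and 80.9 CPM with siETV4 and at 114, 82.6, 84.6 and 72.0 CPM with siNC. Again siETV4 replicate 4 was the highest of its group, above siNC replicate 4, and siNC replicate 1 was the highest of all. The share of counts from mitochondrially encoded genes, a sign of RNA quality, was highest in the same libraries, at 4.50% in siETV4 replicate 4 and 5.04% in siNC replicate 1. It was 3.38 to 4.50% with siETV4 and 3.98 to 5.04% with siNC. The log2 fold change was below 0 for 13 of 13 such genes (median -0.22), as for PPL, EVPL and KRT10, and 0 of the 13 passed the edgeR test (1 at an unadjusted p under 0.05). KRT10 differed from PPL and EVPL in library order. It was highest in replicate 2 of both groups (57.9 CPM with siETV4, 70.3 CPM with siNC), where that share was 3.83% and 3.98%. The part of RNA quality in these differences was not tested.

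For EVPL the log2 fold change was -0.43 (SE 0.15, 95% interval -0.76 to -0.09; edgeR adjusted p 0.332). It passed without siNC replicate 4, at -0.51 (edgeR adjusted p 0.0269), in libraries where the GC rho of the groups did not overlap. After removal of the GC content and length trends it was -0.25 (edgeR adjusted p 0.208), and that of PPL was -0.12 (edgeR adjusted p 0.410), so that both were nearer to 0 by more than 1.5 times. The longest EVPL transcript is 65.0% GC and that of PPL 59.5%. The part of the GC trend in these differences was not tested beyond these fits.

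Involucrin, a rod-shaped early substrate of transglutaminase, was the third expressed precursor among the members. IVL stood at 38.1, 36.9, 44.6 and 44.0 CPM with siETV4 and at 40.7, 30.2, 34.2 and 32.1 CPM with siNC. The siNC libraries were lower apart from replicate 1, which lay within the siETV4 range. The log2 fold change of 0.25 (SE 0.13, 95% interval -0.02 to 0.53) did not pass (edgeR adjusted p 0.423). It was 0.38 after removal of those trends, also without passing (edgeR adjusted p 0.160). PI3, the elafin gene, is a secreted protease inhibitor that transglutaminase links into the envelope. It is not among the 35, and it rose with siETV4. PI3 stood at 21.4, 21.2, 26.3 and 26.2 CPM with siETV4 and at 13.98, 10.6, 12.9 and 10.5 CPM with siNC, without overlap, and its log2 fold change was 0.99 (SE 0.15, edgeR adjusted p 0.0216). The PI3 call was lost when siETV4 replicate 1, 3 or 4 or siNC replicate 2 or 3 was left out (largest edgeR adjusted p 0.112).

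The SPRR proteins, short cross-bridging proteins induced in stress and late differentiation, were low or near zero. SPRR1A had 33, 36, 45 and 20 reads in siETV4 replicates 1 to 4 and 27, 22, 11 and 34 in siNC replicates 1 to 4. SPRR2A had 29, 14, 48 and 17 reads against 35, 29, 26 and 17. In both genes the groups overlap widely, with log2 fold changes of 0.43 (95% interval -0.48 to 1.34) for SPRR1A and -0.09 (95% interval -1.09 to 0.91) for SPRR2A. SPRR1B had 30 reads in siETV4 replicate 1 and 5 or 6 in the other siETV4 libraries, against 5 to 19 with siNC. SPRR2D and SPRR2E summed to 38 and 17 reads with siETV4 and to 17 and 7 with siNC, too few for the filter. SPRR3, which esophageal epithelium makes in quantity, had 1 read in all. The SPRR2 genes are close copies of each other, and reads common to them may have been split or dropped in counting.

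Both LCE genes, LCE3D and LCE3E, had no read in any library, which allows up to 0.0721 to 0.0892 CPM in a single library (3 counts, counting error only). Cornifelin (CNFN), a cysteine-rich envelope protein, was low at 0.593 ± 0.132 CPM with siETV4 and 0.666 ± 0.353 CPM with siNC (SD, n = 4 each). The CNFN difference was within this spread (log2 fold change -0.15, 95% interval -1.12 to 0.81).

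Filaggrin, which collapses the keratin filaments of the granular cell, was at the edge of expression. FLG stood at 2.19, 1.67, 1.42 and 2.41 CPM with siETV4 and at 3.76, 1.55, 2.79 and 3.85 CPM with siNC. The groups overlap through siNC replicate 2, and the log2 fold change of -0.64 had the widest distance from 0 among the tested members but an SE of 0.30 (95% interval -1.29 to 0.02; edgeR adjusted p 0.403). Per length its level was 0.192 FPKM, and the IVL level was 104 ± 43.5 times that of FLG (SD, n = 8 libraries). CASP14, the protease needed for filaggrin breakdown, had 12 reads in the siETV4 libraries and 15 in the siNC libraries.

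Of the cross-linking enzymes, TGM1, the membrane-bound transglutaminase of the envelope, was expressed at a low level. It stood at 1.71, 1.502, 1.54 and 1.47 CPM with siETV4 and at 0.805, 1.96, 1.74 and 1.599 CPM with siNC. The siNC libraries straddled the siETV4 range, with replicate 1 the lowest of all 8, and the log2 fold change was 0.03 (95% interval -0.60 to 0.66). TGM5 was low, at 0.261 and 0.279 CPM in the 2 groups, and its interval was wider (-1.33 to 1.12). TGM3 had 1 read in all. Of the corneodesmosome genes, the desmosomal cadherins DSG1 and DSC1 of the upper epidermis had no read. Corneodesmosin (CDSN) had 4, 12, 0 and 1 reads with siETV4 and 0, 4, 1 and 0 with siNC, too few to compare. DSG1 shares its span with DSG1-AS1, DSC1 with DSCAS and CDSN with PSORS1C1, and reads in shared spans may have been dropped in counting.

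Dermokine, a secreted protein of differentiating epidermis, was close to PPL in level per length. DMKN stood at 78.8, 100.4, 77.1 and 74.4 CPM with siETV4 and at 78.9, 107, 96.7 and 72.2 CPM with siNC. Replicate 2 was the highest library of both groups and the groups overlap throughout (log2 fold change -0.10, SE 0.14, 95% interval -0.41 to 0.21). Its neighbours on chromosome 19, KRTDAP and suprabasin (SBSN), which also encode secreted proteins of the differentiating layers, had 3 reads and 1 read over the 8 libraries. DMKN spans 35497220 to 35513649, KRTDAP 35487324 to 35490464 and SBSN 35523367 to 35528311 (GRCh38.p14), so a gene among the upper ranks lies between 2 that were near zero.

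The calmodulin-like genes and galectin-7 were near zero. CALML5, a calcium-binding protein of the upper epidermis, had 0, 4, 4 and 8 reads with siETV4 and none with siNC, too few for the filter. Its highest library, siETV4 replicate 4, stood at 0.193 CPM, where the 3-count limit was 0.0724 CPM. CALML3, which shares its span with CALML3-AS1, had no read. LGALS7 had 6 reads with siETV4 and 1 with siNC. Its near-identical copy LGALS7B had 26 and 31, and reads of the copies may have been split in counting.

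Of the 6 transcription factors 4 were expressed. KLF4, a zinc finger factor needed for barrier formation, stood at 22.3, 21.6, 17.3 and 23.1 CPM with siETV4 and at 16.2, 16.7, 15.4 and 18.6 CPM with siNC. The siETV4 libraries were higher apart from replicate 3, which lay below siNC replicate 4. The log2 fold change was 0.33 (SE 0.13, 95% interval 0.05 to 0.62) and did not pass (edgeR adjusted p 0.355), nor did it without siNC replicate 4 (0.39, edgeR adjusted p 0.0553) or after removal of the GC content and length trends (0.44, edgeR adjusted p 0.107). With both steps it passed, at 0.57 (edgeR adjusted p 0.00755), in a fit that called 811 genes (6.44%). In the libraries of that fit the GC rho of the groups did not overlap before the trends were removed. KLF4 was the single member called in that fit. There KRT10 was -0.20 (edgeR adjusted p 0.114) and EVPL -0.29 (edgeR adjusted p 0.072).

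OVOL1, a zinc finger factor that acts at the exit from proliferation, stood at 19.4 to 22.2 CPM with siETV4 and 20.6 to 23.7 CPM with siNC (log2 fold change -0.11, 95% interval -0.36 to 0.13). The grainyhead-like factors GRHL3 and GRHL1, activators of envelope and desmosome genes, stood at 13.6 ± 1.17 against 12.2 ± 1.57 CPM and at 5.79 ± 0.771 against 5.38 ± 1.37 CPM (SD, n = 4 each, siETV4 first). In both genes the groups overlap, with 95% intervals of the log2 fold change of -0.15 to 0.46 for GRHL3 and -0.34 to 0.54 for GRHL1. With GC content and length trends removed and without siNC replicate 4, GRHL3 was 0.29 (95% interval 0.02 to 0.55; edgeR adjusted p 0.195). ZNF750, a factor between TP63 and KLF4 in the program, had no read in any library. Its gene shares its span with TBCD, and reads in shared spans may have been dropped in counting. PRDM1 had 24 and 13 reads.

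**Figure D2:**
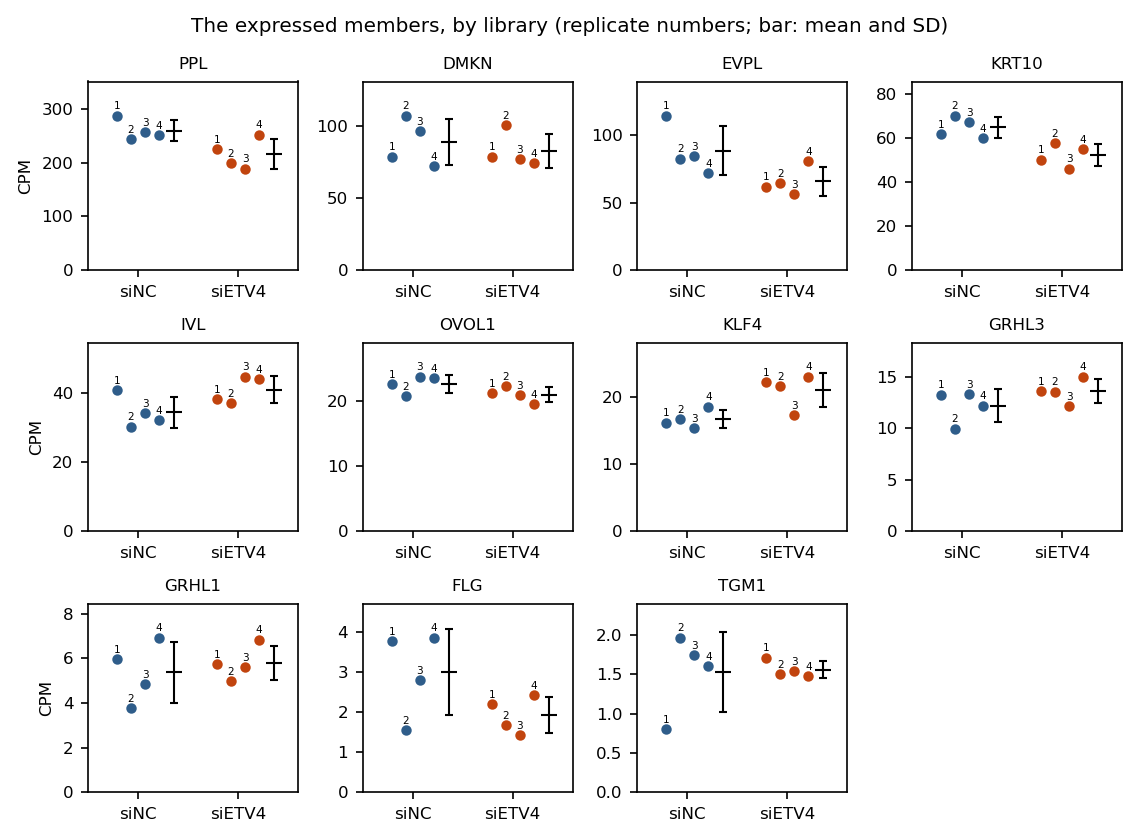
CPM of the 11 expressed members in each library, with the replicate number above each point and the mean and SD of the 4 libraries at the right of each group. KRT10 has siETV4 points all below the siNC points; in the other 10 genes the groups overlap.

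Over the whole set, 4 of the 16 tested members had an unadjusted p under 0.05, against 12.6% of all genes tested: KRT10, EVPL and PPL with negative and KLF4 with positive log2 fold changes. The median log2 fold change was -0.10 over the tested members and -0.01 over all 13572 genes, and 6 members were positive and 10 negative. Members called also numbered 0 in DESeq2, which called 223 genes, in limma-voom and in the robust quasi-likelihood fit. In 10 of the 16 the 95% interval lay within a 2-fold change in either direction. These were KRT10, IVL, EVPL, PPL, TGM1, DMKN, OVOL1, GRHL1, GRHL3 and KLF4. For FLG, CNFN, TGM5 and the tested SPRR genes a 2-fold change was not excluded.

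**Figure D3:**
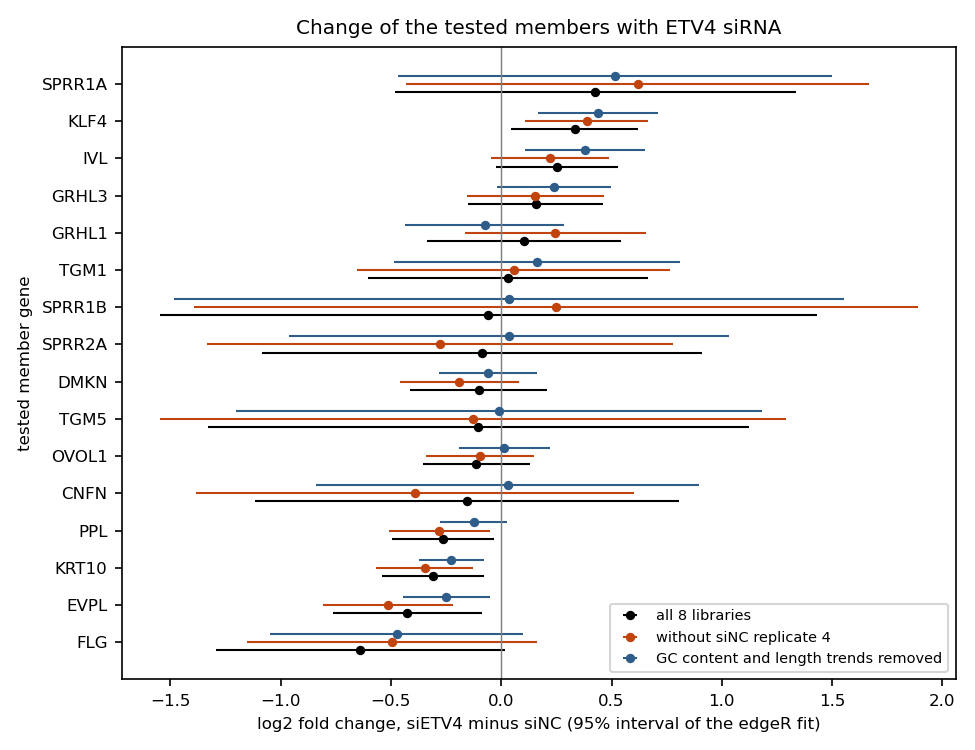
Log2 fold change of the 16 tested members with its 95% interval from the edgeR fit, for all 8 libraries, without siNC replicate 4, and with GC content and length trends removed. The intervals are narrow for abundant members such as KRT10 (-0.54 to -0.08) and wide for low ones such as SPRR1B (-1.55 to 1.43).

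Within the epidermal differentiation complex, expression was largely that of S100 genes. From S100A10 to S100A1 on chromosome 1 (151982915 to 153632039, GRCh38.p14), 60 protein-coding genes were counted, 10 of them members. Of its 15 S100 genes, which encode small calcium-binding proteins, 11 were expressed, led by S100A11 at 1397 and S100A10 at 1138 FPKM. Of the other 45, 3 were expressed (IVL, FLG and trichohyalin, TCHH), 36 were near zero and 25 had no read. These classes rest on CPM, which is not scaled by gene length. Per length, FLG (0.192 FPKM) and TCHH (0.149 FPKM) stood below the low members SPRR1A (1.07 FPKM), SPRR2A (0.996 FPKM) and SPRR1B (0.469 FPKM). None of the 18 LCE genes and none of the 11 SPRR genes reached 1 CPM, and 16 of the LCE genes had no read. IVL thus stood at 17.5 FPKM between LCE and SPRR genes at means of at most 1.07 FPKM. Of the 18 genes of the complex that were tested, 0 passed.

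**Figure D4:**
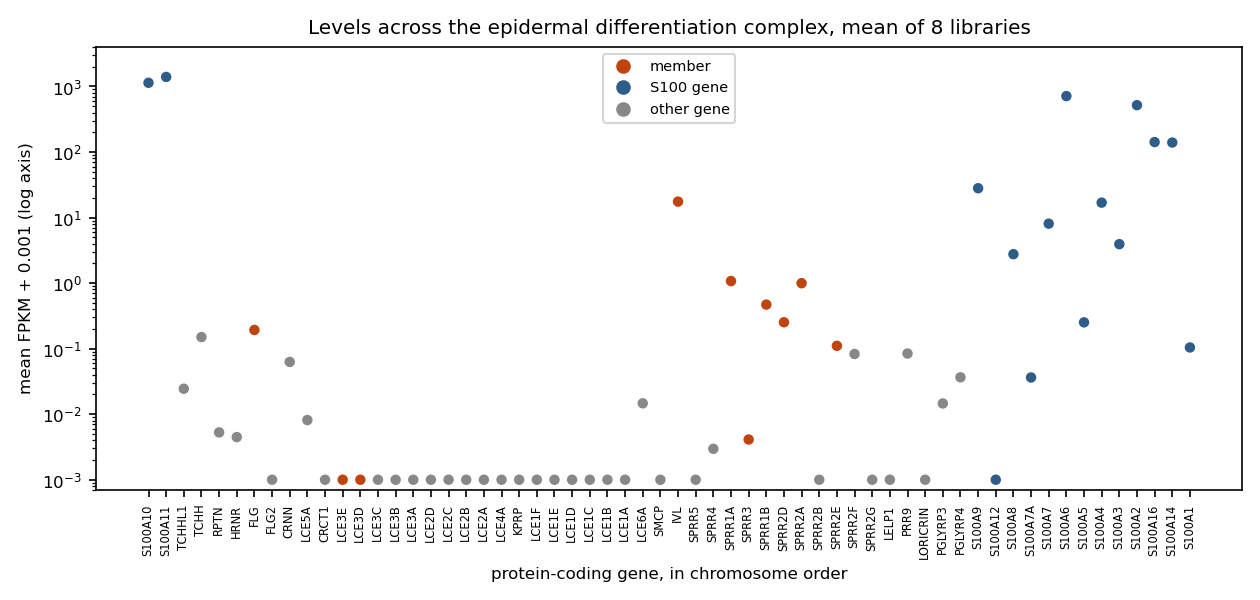
Mean FPKM plus 0.001 over the 8 libraries, on a log axis, of the 60 protein-coding genes of the epidermal differentiation complex in chromosome order. The S100 genes stand at both ends, IVL alone in the middle at 17.5 FPKM, and the LCE genes along the floor.

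A wider list held 97 other genes of the same program. Of 44 further envelope and granule proteins, 32 were near zero, among them loricrin (LORICRIN) and filaggrin-2 (FLG2) with no read, and 9 were expressed, led by cystatin A (CSTA, 95.5 FPKM) and KRT80 (62.9 FPKM). Of 14 barrier lipid enzymes 8 were expressed, among them the ceramide glucosyltransferase UGCG (13.3 FPKM). Of 26 upstream factors 19 were expressed, led by ELF3 (98.5 FPKM). In the whole list 51 were tested, 1 was higher with siETV4 (PI3) and 0 were lower, with a median log2 fold change of 0.0040. Of the 7 basal keratinocyte genes, KRT15 fell with siETV4 (log2 fold change -0.83, SE 0.10, edgeR adjusted p 0.00636). KRT5 (-0.19), KRT14 (-0.03), ITGA6 (0.25), ITGB4 (-0.24), COL17A1 (-0.20) and DST (0.29) did not pass.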

How the data were processed

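Total RNA of 8 HaCaT cultures was sequenced. The authors deposited raw read counts and FPKM values for 34415 gene symbols. The submitters' processing notes list hg38 and R 3.2.0. No aligner, counter, annotation or strand setting is stated there (not given in the sources used here). Each deposited FPKM equals the count over the library total and a fixed gene length (20584 of 20585 genes above 0, relative tolerance 1e-06).

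Counts were tested with edgeR 4.0.16 in R 4.3.3: filterByExpr (minimum count 10) kept 13572 genes, TMM scaling, siRNA as the only term, quasi-likelihood test, Benjamini-Hochberg adjustment over all genes tested, called under 0.05. Alternatives used DESeq2 1.42.0 and limma 3.58.1. GC content came from GENCODE v29 transcripts (12470 tested genes, 91.9%, and all 35 members), with splines of 5 degrees of freedom, and positions and promoters from RefSeq GRCh38.p14. The test was tested on simulated data that held no GC trend. There it recovered 37.3% of 1.5-fold, 69.7% of 2-fold and 96.9% of 4-fold changes.

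The submitters call the cultures independent biological replicates. Members and lists were chosen with earlier results of these data known. Named genes were taken by rule: all members, all basal genes, other cell-type markers from 1 CPM, and, of other pathway genes, those past the threshold and the 2 highest by FPKM in each group, of which some are not reported here. Further names (LORICRIN, FLG2, TCHH, DCN, markers with no read) were added after their values were seen. Alternatives were other scaling, filters, tools and thresholds, offsets for GC content and length, a replicate block, and leaving out each library.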

Additional observations from a re-analysis of the deposited data

Results flagged for a closer look

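Among the 32 groups of 4 libraries formed by the 16 tested members, 2 held a library far from the other 3 by Dixon's gap test, where chance gives about 1 in 20. SPRR1B stood at 0.721 CPM in siETV4 replicate 1 and at 0.121 to 0.148 CPM in the other siETV4 libraries, a difference of 30 against 5 or 6 reads. DMKN stood at 100.4 CPM in siETV4 replicate 2 and at 74.4 to 78.8 CPM in the other siETV4 libraries.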

How the results depend on the processing

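The count of members higher in siETV4 was 0 under each setting tried except GC content and length offsets without siNC replicate 4 (1, KLF4). The count lower was 0 except when 1 library was left out (0 to 2; KRT10 and EVPL without siNC replicate 4). All genes called numbered 9 to 2327 when 1 library was left out, the highest without siNC replicate 4, and 54 without a filter, 223 in DESeq2, 59 by limma-trend on log2 FPKM with a pseudocount of 1 or 0.1, 219 with the offsets, 811 with the offsets without siNC replicate 4, and 60 at an adjusted p of 0.1. The replicate block called 4 genes, and 100 with the offsets; it called no member, and PI3 (edgeR adjusted p 0.127) and KRT15 (0.0683) no longer passed. Libraries of equal number deviated together at r -0.19 to 0.30, so the numbers are not treated as pairs. The members' median log2 fold change was -0.16 to 0.018 with 1 library left out, -0.043 with library size alone, 0.068 without a filter (28 members, some at 0 reads in a group, so a fitted value and no bound), -0.025 and -0.0054 by limma-trend with a pseudocount of 1 and 0.1, 0.021 with the offsets and -0.021 with the offsets without siNC replicate 4. Some uncalled members changed the sign of their log2 fold change. With 1 library left out it ranged from -1.10 to 0.25 in SPRR1B, -0.52 to 0.12 in SPRR2A, -0.39 to 0.22 in CNFN, -0.18 to 0.17 in TGM1, -0.54 to 0.18 in TGM5, -0.21 to 0.0011 in DMKN and -0.033 to 0.25 in GRHL1. With the offsets SPRR1B was 0.036, SPRR2A 0.035, CNFN 0.029, OVOL1 0.014 and GRHL1 -0.075. With the offsets without siNC replicate 4 SPRR1B was 0.49, TGM5 0.016, OVOL1 0.072 and GRHL1 -0.058. With the offsets and the replicate block CNFN was 0.072, OVOL1 0.015 and GRHL1 -0.068. The cause of these shifts was not tested. Depth limits the SPRR genes, CNFN and TGM5, which had at most 48 reads in a library.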

Other observations

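Among the members outside the filter, the fit without a filter gave its smallest p for CALML5 (16 reads with siETV4, 0 with siNC, edgeR adjusted p 0.413). CDSN (17 against 5), SPRR2D (38 against 17) and SPRR2E (17 against 7) also had more reads with siETV4, at edgeR adjusted p of 0.636 to 0.684. None of these passed, and they were singled out after their values were seen. In the wider list of the program, CEBPA and LYPD3 had the smallest adjusted p after PI3, also named after their values were seen. Their groups did not overlap. Of the 51 tested genes of that list, the same was so for PI3, TCHH, ALOXE3, S100A3, S100A4, S100A9 and MAF, and for no others. Over all genes tested, and not within that list, the share without overlap was 6.55%. CEBPA, a factor of keratinocyte growth arrest, stood at 8.85 CPM with siETV4 and 13.2 CPM with siNC (edgeR adjusted p 0.225, log2 fold change -0.58, SE 0.16). LYPD3, a membrane protein of suprabasal cells, was measured at 15.3 CPM with siETV4 and 20.7 CPM with siNC (edgeR adjusted p 0.225, log2 fold change -0.43, SE 0.12). The longest CEBPA transcript is 65.9% GC and that of LYPD3 59.4%. The part of the GC trend in these 2 differences was not tested.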
